A study of Homo sapiens with 3 samples.

Results

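This account covers the genes of mitochondrial translation in the human cell line MDA-MB-231, which derives from a triple-negative breast cancer. Members were taken from the platform annotation by symbol: every gene whose symbol starts with MRPL or MRPS, and every gene whose symbol ends in ARS2. The rule found 78 of the 14884 genes with a named probe set. Of these, 48 were protein-coding MRPL genes of the large subunit, 25 were protein-coding MRPS genes of the small subunit, 3 were pseudogenes and 2 were antisense RNAs. Of the 17 ARS2 genes in the reference gene table, which encode the mitochondrial aminoacyl-tRNA synthetases, 0 had a named probe set, so the planned comparison of the ribosome with these enzymes was not analysed here. MRPL12, MRPS6, MRPS18C and MRPS24 likewise had no named probe set and were not analysed here. No probe set was found under the symbol MRPS36 either.

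Each group was 1 array (n = 1). The groups were cells given 10 µM Mt-CFX for 72 h, cells given 10 µM CFX for 72 h, and control cells given 1% DMSO for 72 h. Ciprofloxacin, an antibiotic of the fluoroquinolone class, is named in the series title, while Mt-CFX is a code name for which no structure is given here. The labels mention DMSO for the control group only. With 1 array per group there was no replicate error, no test could be made, no p-value is given, and the 3 comparisons share their arrays. All 6 markers of the line lay well above the median of all values, with VIM at 9.17 and KRT18 at 8.36 on every array and AXL between 10.86 and 10.97 log2. With Mt-CFX, CD44 was at −0.34, EGFR at −0.14 and AXL at −0.12 log2 from the control, and ZEB1 was at 0.04. The hormone receptor genes ESR1 and PGR had values of at most 3.92 and 2.39 log2, near or below the median of all values on the arrays, 3.89 log2. ERBB2, the other receptor that defines the class by its absence, was not analysed here. Of 6 markers of other cell types 2 were measured, PECAM1 of endothelium and EPCAM of luminal epithelium. PECAM1 was at 2.25 log2 with Mt-CFX, against 2.59 with CFX and 2.59 in the control, all below the median of all values. EPCAM was at 5.11 with Mt-CFX, against 5.37 with CFX and 5.37 in the control, all above that median. Their part in the results was not tested.

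Mitochondria keep their own ribosome, which translates the few proteins encoded in mitochondrial DNA, all of them subunits of the respiratory chain and the ATP synthase. Its proteins are encoded in the nucleus, made in the cytosol and imported. Some have counterparts in the bacterial ribosome from which it descends, and others are found only in mitochondria. Because of this descent, the mitochondrial ribosome is sensitive to several antibiotics aimed at bacterial protein synthesis. Fluoroquinolones belong to another class, and their bacterial targets are the type II topoisomerases.

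All 73 protein-coding ribosomal members were above the median of all values, with means over the arrays from 4.12 to 8.54 log2, so a floor on expression removed 0 of them. Values are log2 expression per probe set, made by the submitters with RMA, and a difference is a difference of log2 values. RMA often gives a probe set exactly the same value on several arrays, and 29 of the 73 members had equal values on all 3 arrays (39.7%, against 52.7% of 11916 protein-coding genes). Among protein-coding genes with a mean at or above the median of all values, as all members had, 45.6% were equal on all 3 arrays. An equal value is a property of the RMA summary and does not show that a gene was unaffected. The arrays were scaled to each other, so a value is relative to the total RNA of a culture, and fewer cells or less RNA per cell cannot be told apart from it.

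With Mt-CFX, the mitochondrial ribosomal protein genes stayed within 1.5-fold of the vehicle control, and those that differed were mostly slightly lower. The 73 members divided into 26 lower, 11 higher and 36 equal. Among all protein-coding genes 19.7% were lower and 20.4% were higher, against 35.6% and 15.1% of the members. Among the 8821 genes with a mean at or above the median of all values, as all members had, 23.1% were lower and 23.8% higher. The median difference was 0.00 log2, as for all genes, and the mean was −0.026 log2, against 0.0025 log2 over all genes. Most of these differences were very small: counting only those over 0.05 log2, 13 members (17.8%) were lower and 8 (10.96%) higher, against 15.8% of all genes in each direction and 18.2% and 18.1% of those with a mean at or above the median. That share of lower members is near the background. At 1.2-fold, which is 0.263 log2, 2 members were lower and 0 were higher, against 4.79% and 5.09% of all genes. At 1.5-fold 0 members differed, against 0.99% of genes lower and 1.23% higher, and the shares of genes past 2-fold were 0.201% and 0.269%.

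**Figure D1:**
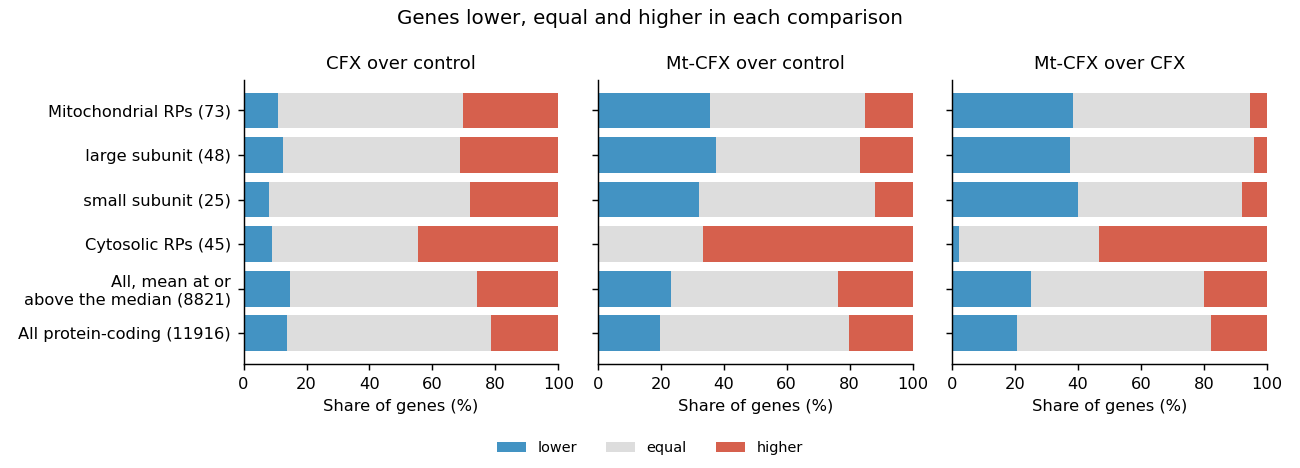
Share of genes (%) that were lower (blue), equal (grey) or higher (red) in each of the 3 comparisons, for the 73 mitochondrial ribosomal protein (RP) genes, their subunits, 45 cytosolic ribosomal protein genes and all protein-coding genes, with the number of genes in brackets. The blue part of the mitochondrial bar is 35.6% for Mt-CFX over control and 38.4% for Mt-CFX over CFX, against 10.96% for CFX over control.

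The member farthest from its control value was MRPS28, a small-subunit protein related to bacterial S1. It was at 5.05 log2 with Mt-CFX, 5.59 with CFX and 5.59 in the control. The Mt-CFX array stood alone, at −0.54 log2 from the equal pair, which is 0.689 of the control level. MRPL20, the counterpart of a bacterial protein needed early in the assembly of the large subunit, was at 5.65 log2 with Mt-CFX, 5.79 with CFX and 6.07 in the control. Both compounds were on the low side here, with differences from the control of −0.41 log2 for Mt-CFX and −0.27 for CFX. These were the members past 1.2-fold in any comparison.

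Just inside that size lay 3 more genes on which only the Mt-CFX array was apart. MRPS7, a protein of the small-subunit head, was at 7.26 log2 with Mt-CFX, against 7.51 with CFX and 7.51 in the control. MRPS26, found only in mitochondrial ribosomes, was at 5.66 log2 with Mt-CFX, against 5.91 with CFX and 5.91 in the control. MRPL15, a core protein of the large subunit, was at 7.05 log2 with Mt-CFX, against 7.30 with CFX and 7.30 in the control. The differences were −0.26 log2 for MRPS7, −0.25 for MRPS26 and −0.24 for MRPL15.

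MRPL22, which lines the tunnel through which the new chain leaves, differed by −0.15 log2 from the control with Mt-CFX. MRPL23, a protein at the mouth of that tunnel, differed by −0.12 log2, and MRPS27, a pentatricopeptide repeat protein, by −0.10. MRPL54 differed by −0.09, MRPL18 by −0.07 and MRPS34, a gene mutated in Leigh-like disease, by −0.07 log2. MRPS12, the counterpart of the bacterial decoding-site protein S12, differed by −0.05 and MRPL11, a protein of the GTPase-associated region, by −0.03.

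On the other side, MRPL45 and MRPL1 led the higher members. MRPL45, which helps to hold the ribosome at the inner membrane, was at 8.29 log2 with Mt-CFX, 8.29 with CFX and 8.11 in the control. The control array stood alone, and both compounds were 0.18 log2 above it. MRPL1, the protein of the L1 stalk through which used tRNAs leave, was at 6.19 log2 with Mt-CFX, 6.22 with CFX and 6.02 in the control, a difference of 0.17 log2 for Mt-CFX. MRPS10 followed at 0.15 log2 with Mt-CFX, MRPL9 at 0.13, and MRPL47, MRPS35, MRPS21 and MRPL21 each at 0.08.

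**Figure D2:**
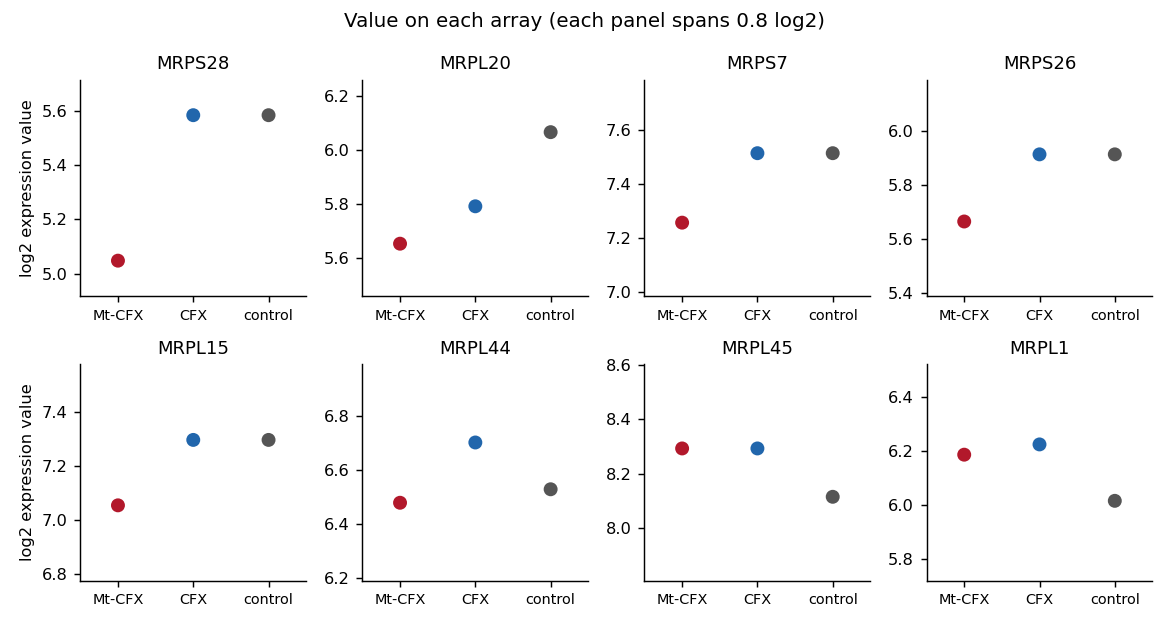
Log2 expression value of 8 members on the Mt-CFX, CFX and control arrays, 1 point per array, with each panel spanning 0.8 log2 so that distances can be compared between panels. MRPS28, MRPS7, MRPS26 and MRPL15 had equal CFX and control values above the Mt-CFX value, while MRPL45 had equal Mt-CFX and CFX values above the control.

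Promoter sequence is shown for MRPL20 and MRPS26, which were lower with Mt-CFX, and MRPL1, which was higher, since the genes of this family are scattered over the genome and their promoters are what they could share. The sequences are from RefSeq, build GRCh38.p14, and give the 250 bases before the annotated start, 5′ to 3′ on the gene's strand, with matches to the ETS-family core CCGGAAG on either strand in capitals. MRPL20 (chr1:1407294-1407543, minus strand) held 2 matches, whose first bases lay at −44 and −21 from the start. MRPS26 (chr20:3045802-3046051, plus strand) held 1 at −37, on the opposite strand. MRPL1 (chr4:77862580-77862829, plus strand) held 0 in these bases. These genes were chosen after their values were seen, and their matches do not stand for lower and higher members in general. In the promoter windows described below, the core was in 9 of the 22 lower members and in 4 of the 9 higher ones.
MRPL20: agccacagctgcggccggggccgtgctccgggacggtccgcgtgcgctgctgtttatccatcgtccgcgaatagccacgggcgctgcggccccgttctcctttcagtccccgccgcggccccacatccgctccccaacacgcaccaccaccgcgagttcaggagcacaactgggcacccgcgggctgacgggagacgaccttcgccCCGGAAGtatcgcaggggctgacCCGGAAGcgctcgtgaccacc
MRPS26: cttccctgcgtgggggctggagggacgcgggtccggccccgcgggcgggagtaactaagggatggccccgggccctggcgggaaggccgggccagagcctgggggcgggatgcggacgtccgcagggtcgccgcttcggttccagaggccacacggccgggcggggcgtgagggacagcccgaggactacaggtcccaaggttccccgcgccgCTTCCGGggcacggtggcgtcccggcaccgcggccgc
MRPL1: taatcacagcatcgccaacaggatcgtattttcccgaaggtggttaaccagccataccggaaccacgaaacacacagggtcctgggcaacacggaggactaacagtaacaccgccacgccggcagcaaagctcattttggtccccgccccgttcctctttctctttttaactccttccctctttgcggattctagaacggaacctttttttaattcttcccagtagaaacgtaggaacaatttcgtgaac

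Promoter windows of 300 bases, 250 before and 50 after the start, were given for 65 of the 73 members. Both strands were searched. The ETS core CCGGAAG was found in 28 of the 65 (43.1%), against 15.6% of 9707 protein-coding genes with a window. Those 9707 genes were not matched to the members for expression level or for base composition of the promoter. The part of either in the shares given here was not tested. The letters AAGATGGC, a core of sites for the factor YY1, were found in 19 (29.2%), against 4.34% of genes. They contain a start codon, and 14 of their 20 occurrences lay after the start. GCATGCGC, a core of sites for the nuclear respiratory factor NRF1, was found in 5 (7.69%), against 4.65% of genes. TGATGCAA, a composite site used by the stress factor ATF4, was found in 0 of the 65, against 0.608% of genes, which says only that these letters are not in these windows. The ETS and YY1 cores can share the letters AAG, and their matches overlapped in 0 of the 8 members that held both.

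Matches were spread over members of every direction with Mt-CFX. The ETS core was in 9 of the 22 lower members with a window, in 4 of the 9 higher ones and in 15 of the 34 equal ones. The YY1 core was in 8 of the 22 lower members, in 4 of the 9 higher ones and in 7 of the 34 equal ones. The bases around the YY1 core are shown for 5 of them, with the core in capitals, because it occurred in genes that lay on opposite sides of the control: MRPL20, MRPL38, MRPS27 and MRPS7 were lower with Mt-CFX and MRPL45 was higher. The stretches are chr1:1407263-1407286 (minus strand), chr17:75904863-75904886 (minus), chr5:72320209-72320232 (minus), chr17:75261890-75261913 (plus) and chr17:38297173-38297196 (plus).
MRPL20: acccgggcAAGATGGCagcggcgc
MRPL38: ccggagggAAGATGGCggcgccct
MRPS27: tacgctccAAGATGGCtgcctcca
MRPS7: ggccagccAAGATGGCtgcccccg
MRPL45: gcgggaacAAGATGGCagccccca

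**Figure D3:**
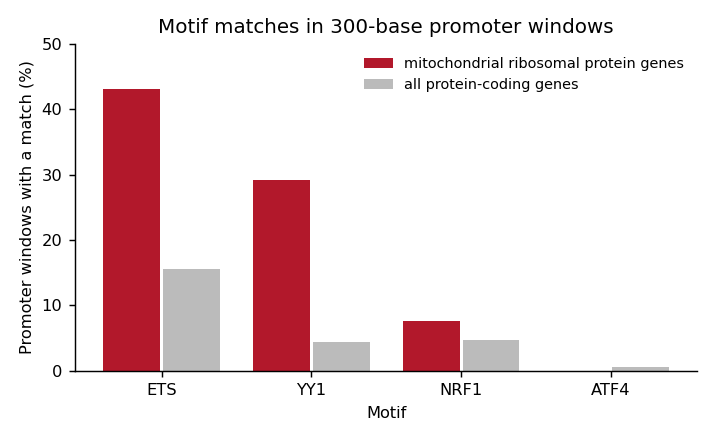
Share of 300-base promoter windows (%) with at least 1 match to each of 4 motifs, for 65 mitochondrial ribosomal protein genes and for 9707 protein-coding genes. The ETS bars stand at 43.1% and 15.6% and the YY1 bars at 29.2% and 4.34%, while the ATF4 bar of the ribosomal genes is at 0.

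With CFX, the ribosomal members were more often above than below the control, by shares not far from those of other genes. The higher members numbered 22 (30.1%), the lower ones 8 (10.96%) and the equal ones 43, against 21.3% of all protein-coding genes higher and 13.9% lower. Among genes with a mean at or above the median of all values, 25.7% were higher and 14.9% lower. The mean difference was 0.014 log2, against 0.0064 over all genes. Counting only differences over 0.05 log2, 11 members (15.1%) were higher and 4 (5.48%) lower, against 14.4% and 9.85% of all genes and 16.9% and 9.87% of those with a mean at or above the median, so the higher share was near the background. At 1.2-fold only MRPL20 was counted, and it was lower, against 1.54% of all genes lower and 1.76% higher. At 1.5-fold 0 members differed, against 0.134% of genes lower and 0.0839% higher, and past 2-fold were 0.00839% and 0.0168% of genes.

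The highest members with CFX were MRPL1 at 0.21 log2, MRPL45 at 0.18 and MRPL44 at 0.17. MRPL44, a protein with a ribonuclease III fold whose gene is mutated in a form of cardiomyopathy, was at 6.48 log2 with Mt-CFX, 6.70 with CFX and 6.53 in the control. Its CFX value was the highest and its Mt-CFX value the lowest, although its other probe set, at 1.36 on each array and so below the median of all values, was equal throughout. MRPS15 was higher by 0.14 log2 with CFX and equal to the control with Mt-CFX, as were MRPS5, at 0.12 with CFX, and MRPS33, at 0.04. MRPL9 was at 0.13, MRPS10 at 0.09, MRPL18 at 0.09 and MRPS35 at 0.08 log2 with CFX. Below the control with CFX were MRPL54 at −0.09, MRPL4 at −0.08, MRPL23 at −0.06, MRPS12 at −0.05, MRPL14 at −0.04, MRPS18A at −0.03 and MRPL10 at −0.02 log2.

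**Figure D4:**
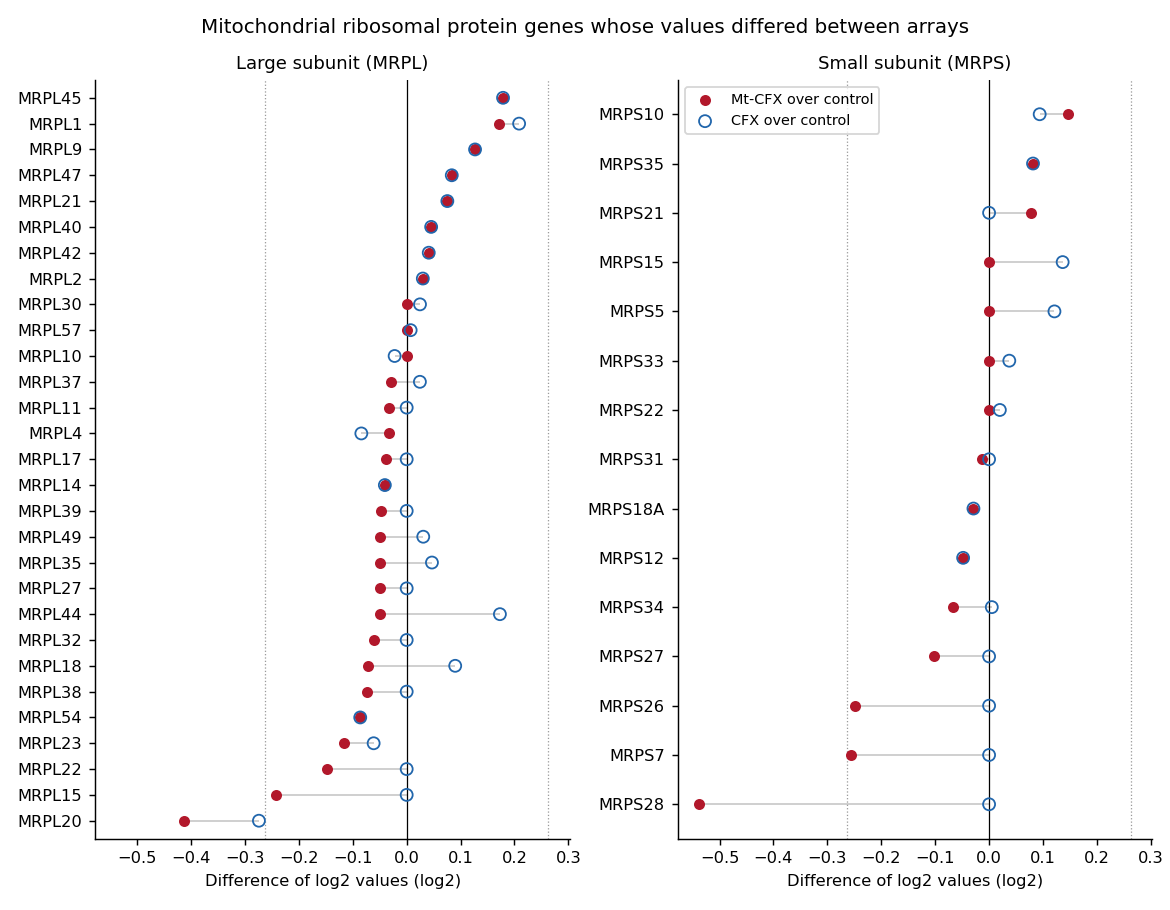
Difference of log2 values from the control for the 44 ribosomal members that were not equal on all 3 arrays, with Mt-CFX as filled red points and CFX as open blue circles, and dotted lines at 1.2-fold. MRPS28 and MRPL20 are the members past a dotted line, both on the low side, and most red points lie at or left of their blue circles.

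Both compounds were given at 10 µM for 72 h, and their arrays differed in 32 of the 73 members. In 28 of these the Mt-CFX value was below the CFX value, and in 4 it was above. These are 38.4% and 5.48% of the members, against 20.7% of all protein-coding genes lower and 17.7% higher, and 25.1% and 20.1% of those with a mean at or above the median. Counting only differences over 0.05 log2, 18 members (24.7%) were lower and 3 (4.11%) higher, against 16.4% and 13.7% of all genes and 19.6% and 15.2% of those with a mean at or above the median. The mean difference was −0.040 log2, against −0.0040 over all genes. At 1.2-fold only MRPS28 was counted, at −0.54 log2, against 4.74% of all genes lower and 4.13% higher, and at 1.5-fold 0 members were, against 0.78% and 0.982%. The shares of genes past 2-fold were 0.0923% lower and 0.227% higher. No interval of any difference can be given with 1 array per compound.

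After MRPS28, the lowest members with Mt-CFX relative to CFX were MRPS7 at −0.26, MRPS26 at −0.25, MRPL15 at −0.24, MRPL44 at −0.22, MRPL18 at −0.16 and MRPL22 at −0.15 log2. MRPS15 was at −0.14, MRPL20 at −0.14, MRPS5 at −0.12 and MRPS27 at −0.10. The 4 higher members were MRPS21 at 0.08, MRPS10 at 0.05, MRPL4 at 0.05 and MRPL10 at 0.02 log2.

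Which array stood apart can be read from the equal values. In 14 members (19.2%, against 12.1% of all protein-coding genes) the CFX and control values were equal and Mt-CFX was apart, below them in 13 and above them in 1, MRPS21. Among all genes with that pattern, 50.3% had Mt-CFX below, and 51.8% of those with a mean at or above the median. In 12 members (16.4%, against 8.92% of all genes) the Mt-CFX and CFX values were equal and the control was apart, with the compounds above it in 8 and below it in 4. The 33.3% below are near the background, 42.4% of all genes with that pattern and 38.8% of those with a mean at or above the median. In 7 members (9.59%, against 7.23% of all genes) CFX alone was apart, above in 6 and below in 1, MRPL10. Of all genes with that pattern 42.3% had CFX below, and 38.0% of those with a mean at or above the median. The other 11 members (15.1%, against 19.1% of all genes) had 3 different values, and Mt-CFX was the lowest in 8 of them. How often Mt-CFX was the lowest among all genes with that pattern was not counted. In the order given, these patterns made up 13.8%, 9.28%, 7.46% and 23.8% of genes with a mean at or above the median.

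The subunits were set beside each other in each comparison. With Mt-CFX over control, 18 of 48 large-subunit genes were lower (37.5%), 8 were higher (16.7%) and 22 equal. Of 25 small-subunit genes 8 were lower (32.0%), 3 higher (12.0%) and 14 equal. Among all protein-coding genes 19.7% were lower and 20.4% higher. Among genes with a mean at or above the median, 23.1% were lower and 23.8% higher, or 18.2% and 18.1% over 0.05 log2. Over 0.05 log2, 8 large-subunit genes (16.7%) and 5 small-subunit genes (20.0%) were lower, against 15.8% of all genes. At that size 5 (10.4%) and 3 (12.0%) were higher, against 15.8%. The large-subunit share of lower genes is then near the background. The mean differences were −0.018 ± 0.090 log2 for the large and −0.040 ± 0.13 for the small subunit (SD over genes, which are not replicates). Without MRPS28 the small-subunit mean was −0.019, and without MRPL20 the large-subunit mean was −0.0099. With Mt-CFX over CFX, 18 large-subunit genes were lower (37.5%) and 2 higher (4.17%), with a mean of −0.031 log2. In the small subunit 10 genes were lower (40.0%) and 2 higher (8.0%), with a mean of −0.057, or −0.037 without MRPS28. Among all genes 20.7% were lower and 17.7% higher. Among genes with a mean at or above the median, 25.1% were lower and 20.1% higher, or 19.6% and 15.2% over 0.05 log2. Over 0.05 log2, 11 large-subunit (22.9%) and 7 small-subunit genes (28.0%) were lower, against 16.4% of all genes. At that size 1 (2.08%) and 2 (8.0%) were higher, against 13.7%. With CFX over control, 15 large-subunit genes were higher (31.25%) and 6 lower (12.5%). In the small subunit 7 genes were higher (28.0%) and 2 lower (8.0%). Among all genes 21.3% were higher and 13.9% lower. Among genes with a mean at or above the median, 25.7% were higher and 14.9% lower, or 16.9% and 9.87% over 0.05 log2. Over 0.05 log2, 7 large-subunit (14.6%) and 4 small-subunit genes (16%) were higher, against 14.4% of all genes. Both higher shares are then near the background. At that size 4 (8.33%) and 0 were lower, against 9.85%. All 6 medians were 0.00 log2, a value largely set by the equal genes, which were 45.8% to 64.0% of a subunit. The difference between the subunits was not tested.

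A split by descent crossed the subunits. Of 43 measured proteins with a bacterial counterpart, 16 were lower (37.2%) and 7 higher (16.3%) with Mt-CFX than in the control. Of 30 found only in mitochondria, 10 were lower (33.3%) and 4 higher (13.3%). Among all protein-coding genes 19.7% were lower and 20.4% higher. Among genes with a mean at or above the median, 23.1% were lower and 23.8% higher, or 18.2% and 18.1% over 0.05 log2. Over 0.05 log2 the lower shares were 18.6% and 16.7%, near the 15.8% of all genes. With Mt-CFX over CFX, 16 of the 43 were lower (37.2%) and 4 higher (9.30%), and 12 of the 30 were lower (40.0%) and 0 higher. Among all genes 20.7% were lower and 17.7% higher. Among genes with a mean at or above the median, 25.1% were lower and 20.1% higher, or 19.6% and 15.2% over 0.05 log2. Over 0.05 log2, 11 of the 43 (25.6%) and 7 of the 30 (23.3%) were lower, against 16.4% of all genes. At that size 3 of the 43 (6.98%) and 0 of the 30 were higher, against 13.7%. The difference between the classes was not tested. MRPS28 and MRPL20, the members past 1.2-fold, are both of bacterial descent, as are 43 of the 73 members. In the structure of the human ribosome MRPS18A and MRPS30 sit in the large subunit despite their names. MRPS18A was at −0.03 log2 with Mt-CFX, and MRPS30 was equal on all 3 arrays, as were MRPS16, a gene whose loss causes a neonatal mitochondrial disease, and MRPL58, which frees stalled ribosomes. MRPS22, another disease gene, was equal with Mt-CFX and control and 0.02 log2 higher with CFX than in the control.

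Of the members with several probe sets, MRPS16 and MRPS2 had 2 each and MRPS18B had 7, and every one was equal on all 3 arrays. Some members share sequence with pseudogenes, and whether their probes also detect those transcripts was not tested. MRPL45P2 was 0.07 log2 higher with CFX than in the control and equal with Mt-CFX. MRPL42P5 was at 3.47 log2 with Mt-CFX, 3.69 with CFX and 3.22 in the control, all below the median of all values, so the size of these differences is uncertain. MRPS31P5 and the antisense RNAs MRPL20-AS1 and MRPL23-AS1 were equal on all 3 arrays, also where MRPL20 and MRPL23 were lower.

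Some enzymes that cut mitochondrial tRNAs out of their precursors were lower with Mt-CFX. In the list of tRNA processing and modification genes, 13 of 15 were measured, and with Mt-CFX over control 4 were lower (30.8%), 2 higher (15.4%) and 7 equal, against 19.7% and 20.4% of all protein-coding genes lower and higher. At 1.2-fold 3 were lower (23.1%) and 0 higher, against 4.79% and 5.09% of all genes. The median was 0.00 and the mean −0.085 log2. ELAC2, the enzyme that trims the 3′ end of tRNA precursors in nucleus and mitochondrion, was at 8.10 log2 with Mt-CFX, 8.62 with CFX and 8.54 in the control. Its difference from the control was −0.44 log2 with Mt-CFX and 0.08 with CFX, so the compounds lay on opposite sides of it, with Mt-CFX at −0.53 log2 from CFX.

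The 5′ end is cut by mitochondrial RNase P, a complex of PRORP, TRMT10C and HSD17B10. PRORP, its nuclease, was at 6.80 log2 with Mt-CFX, 7.22 with CFX and 7.12 in the control. TRMT10C, its methyltransferase subunit, was at 5.55 log2 with Mt-CFX, 5.62 with CFX and 5.88 in the control. PRORP was low on the Mt-CFX array alone, at −0.32 log2 from the control, while TRMT10C was low with both compounds, at −0.32 for Mt-CFX and −0.25 for CFX. HSD17B10 was equal on all 3 arrays. PDE12, which removes poly(A) tails in mitochondria, was at −0.11 log2 with Mt-CFX and 0.06 with CFX.

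Of 26 assembly factors and rRNA enzymes of the mitochondrial ribosome 23 were measured, and with Mt-CFX over control 5 were higher (21.7%), 5 lower (21.7%) and 13 equal. These shares are near the background of 20.4% higher and 19.7% lower. RCC1L was at −0.34 log2, although its other probe set was equal on all arrays. RBFA, which helps to mature the small subunit, was at −0.27. NOA1, a GTPase of ribosome assembly, was higher by 0.27 log2 with Mt-CFX and by 0.23 with CFX. ERAL1, a chaperone of the small-subunit rRNA, was at −0.16 with Mt-CFX and equal with CFX.

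Of 15 translation factors 11 were measured, with 5 higher (45.5%), 2 lower (18.2%) and 4 equal for Mt-CFX over control, against 20.4% of all genes higher and 19.7% lower. The lower share is near the background. MTRF1, a release factor, was at 6.35 log2 with Mt-CFX, 6.35 with CFX and 5.98 in the control, and the control array was the one apart, by 0.37 log2. MTRF1L, the other release factor, was higher by 0.18 with Mt-CFX at the probe set used, while its other probe sets gave differences of 0.00 to 0.23. The initiation factor MTIF2 was higher by 0.11 with Mt-CFX and 0.13 with CFX. LRPPRC, which stabilises mitochondrial mRNAs, was at −0.0062 with Mt-CFX and 0.15 with CFX. TUFM, TSFM, GFM1 and GFM2, the elongation factors, were not analysed here.

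**Figure D5:**
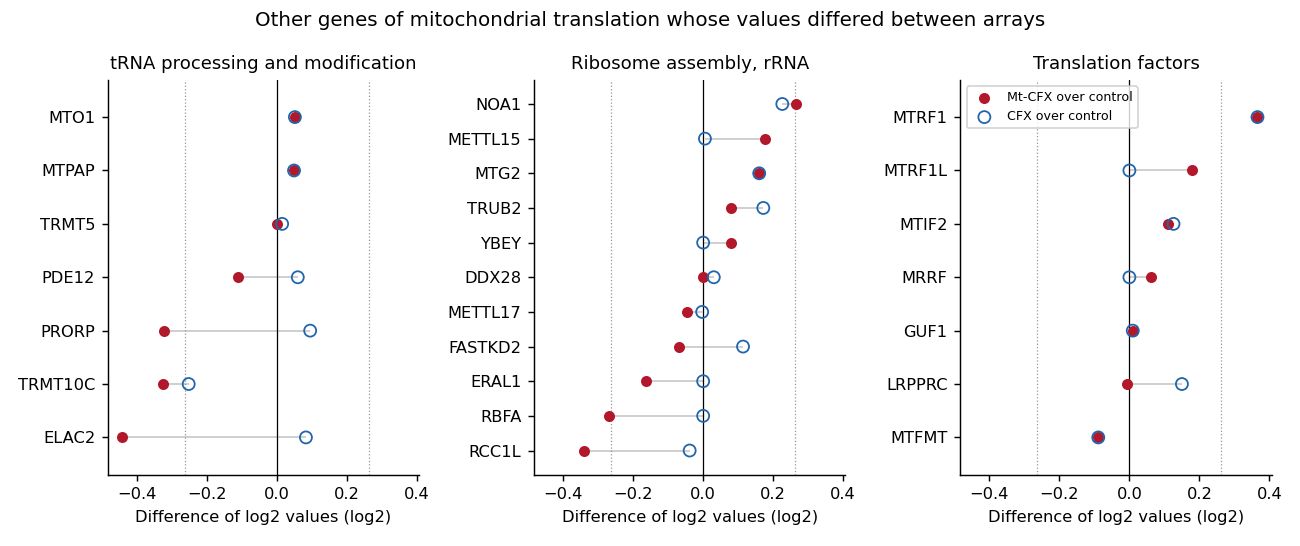
Difference of log2 values from the control for the genes of 3 further lists that were not equal on all 3 arrays, with Mt-CFX as filled red points, CFX as open blue circles and dotted lines at 1.2-fold. ELAC2, PRORP and TRMT10C lie beyond the lower line with Mt-CFX, RCC1L and RBFA likewise, and MTRF1 lies beyond the upper line with both compounds.

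Of 5 listed ribosomal proteins whose symbols have another stem 3 were measured, DAP3, PTCD3 and CHCHD1, and these had equal values with Mt-CFX and control. AURKAIP1 and GADD45GIP1 were not analysed here. CHCHD1 was higher by 0.09 log2 with CFX. QRSL1 and GATB, subunits of the enzyme that finishes the charging of mitochondrial glutamine tRNA, were equal on all 3 arrays.

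The synthetases that can be described are those of the cytosol. KARS1 and GARS1 make both the cytosolic and the mitochondrial enzyme for lysine and glycine from a single gene. GARS1 was at 10.20 log2 with Mt-CFX, 9.69 with CFX and 9.45 in the control, a difference of 0.75 log2 for Mt-CFX. KARS1 was equal on all 3 arrays. Over the 17 measured cytosolic synthetases the median difference with Mt-CFX was 0.49 log2, against 0.00 over the mitochondrial ribosomal members, and 11 of them (64.7%) were at least 1.2-fold higher and 0 lower, against 5.09% and 4.79% of all genes. WARS1, the tryptophan enzyme, was the highest at 1.05 log2, although its other probe set was equal on all arrays. The cytosolic ribosomal proteins, 45 genes, had 30 members (66.7%) higher with Mt-CFX than in the control, 0 lower and 15 equal, against 20.4% of all genes higher and 19.7% lower, while the mitochondrial ones had 11 higher, 26 lower and 36 equal. The cytosolic ribosomal differences were small, with a median of 0.047 log2. Of the 45, 22 (48.9%) were higher by over 0.05 log2, against 15.8% of all genes. At 1.2-fold 8 (17.8%) were higher, against 5.09%, and at 1.5-fold 0, against 1.23%. The difference between these sets was not tested.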

How the data were processed

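RNA of MDA-MB-231 cells was measured on 3 whole-transcript arrays, 1 per group. The deposited values were log2 expression, 1 per probe set and array; the submitters' processing notes name RMA and Affymetrix Expression Console; versions and genome build are not given in the sources used here. All further steps were computed from these values. Of 53617 probe sets 16098 had 1 gene symbol in the platform annotation, 0 had several, and all named ones were found in the RefSeq gene table through their gene ID. Each gene was represented by 1 probe set, that of highest mean over the 3 arrays. Values counted as equal when they were identical as deposited (within 1e-09). No coordinates of probe sets are given.

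Members and lists were chosen with earlier results of these data known. Named genes were, per subunit and comparison, the 5 highest and 5 lowest members, preset disease and function genes, and list genes at 1.2-fold (of the cytosolic synthetases only GARS1, KARS1 and WARS1, the others being counted); the other list genes, the motifs and the printed sequences were chosen after their values were seen. Gene lists covered ribosome, factors, assembly, tRNA enzymes, cytosolic synthetases and markers of the line and of other cells. For motifs the first window listed per gene was used. Counting and motif search were tested on simulated data. Alternatives were floors on the mean and on the highest array, an average over all probe sets of a gene, lowess re-centring (span 0.3), members not equal on all arrays, means, subunits by structure, and other sizes. Tools were Python 3.11.15, numpy 2.4.6, pandas 2.3.3, statsmodels 0.14.6 and matplotlib 3.10.9.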

Additional observations from a re-analysis of the deposited data

How the results depend on the processing

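The number of arrays limits every value, since 1 array per group leaves no replicate to set a difference against, and no replicate could be left out. No paired analysis was possible because each group has 1 sample. Of 93 alternative values of 15 results, 85 stayed within the limits set. A shift of a median counted above 0.05 log2 and a shift of a count above 1.5 times. A turn in direction could not be recorded, since the main medians were all 0 and a count has no direction. The tally of 85 is no measure of stability, since many alternatives could not move a value. Both floors kept all 73 ribosomal members, and members with equal values add nothing to a count. With 0 members at 1.5-fold there are 0 at 2-fold, and equal values hold the medians at 0. The re-centred medians were also exactly 0, so re-centring shifted none of them and gives no added check. Re-centring was not run on the counts of higher and lower members. Of the 8 values that moved, 7 came from the size at which a difference counts and 1 from taking a mean. At 1.2-fold in place of 1.5-fold, 2 members differed for Mt-CFX over control, 1 for CFX over control and 1 for Mt-CFX over CFX, against 0 in each. Counting only differences over 0.05 log2, a size chosen after the data were seen, left 13 lower members for Mt-CFX over control, 18 lower for Mt-CFX over CFX, and 11 higher and 4 lower for CFX over control. The mean in place of the median gave −0.057 log2 for the small subunit in Mt-CFX over CFX, a value that was −0.037 without MRPS28. The comparison with the mitochondrial synthetases was not run for want of named probe sets.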
